A study of Bos taurus with 16 samples.

Results

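Blood vessels of the cow mammary gland were followed through 42 endothelial and angiogenic genes, which encode junction and surface proteins of endothelial cells, their transcription factors, the VEGF, angiopoietin, endothelin and apelin systems, and lymphatic and activation markers. The genes were chosen by name, and each was read from the probe set that the array annotation ties to its symbol and to no other. Of the 42 genes, 41 were found in this way, against 18444 genes with 1 symbol in all; ICAM2, an adhesion molecule of endothelium and leukocytes, was not found and is not analysed here. ENG had 2 such probe sets, and the brighter one was taken.

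The tissue came from needle biopsies of 16 Parda de Montaña heifers, taken at the end of their first lactation, with 1 array per heifer. Between birth and 6 months of age, the 8 heifers of the CON group had a starter concentrate besides their dams' milk, and the 8 of the NOCON group had dams' milk alone. All 16 suckled in sessions of 30 min. Between 6 and 15 months they were divided between rations of 67% forage with 33% concentrate and 87% forage with 13% concentrate. The labels do not tie a ration to a heifer, so how the rations were spread over each group is not known here.

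Endothelial cells line every vessel and hold together through junction proteins such as VE-cadherin (CDH5) and PECAM1. They read VEGF, which other cells release, through the receptor kinases KDR and FLT1, and angiopoietins through the receptor TEK, and these signals start, guide and calm the growth of vessels. In the mammary gland, the capillaries around the alveoli grow with the secretory tissue in pregnancy, supply the precursors of milk in lactation and regress as the gland involutes.

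The arrays did not all resemble each other equally, and what sets some of them apart was not tested. On 11 of them the median correlation with the other arrays lay between 0.986 and 0.989, whereas on CON 2, CON 6, CON 7, NOCON 1 and NOCON 5 it lay between 0.866 (CON 7) and 0.974. CON 7 also had the narrowest interquartile range of expression, 1.49 on the log2 scale against 1.68 to 2.15 on the other arrays. These 5 arrays are called low-correlation arrays below, and results are given with and without them. All values are log2 expression as deposited, with no detection call and no read depth, so the number of arrays limits the precision. In a biopsy, fewer cells of a type and less RNA per cell cannot be told apart.

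The defining markers of vessels were read above the median gene by their means over the 16 arrays. Of the 11 genes taken as defining markers of vascular endothelium (PECAM1, CDH5, VWF, TEK, TIE1, EGFL7, CLDN5, ESAM, ROBO4, EMCN and CLEC14A), 11 had a mean above the median gene of the array, which lay at 4.48. On single arrays TEK lay below the array's own median on NOCON 1 (at 4.09) and on CON 7 (at 4.32), as did TIE1 on CON 7 (at 4.55), and the other markers lay above it on each array. Of all 41 genes, 30 lay above that median and 11 below it, and their own median was 5.58. The luminal epithelium of the gland was present too, with 11 of 12 markers above the median gene and ELF5, its transcription factor, at 11.30. Markers of platelets and of erythrocytes, which come with blood in the vessels, had 0 of 7 and 0 of 5 genes above the median gene. A probe set's brightness also depends on its probes, so the place of a gene above or below the median gene is only a rough position of its probe set and not an amount of RNA.

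The 11 junction and surface genes all lay above the median gene. CDH5 ranged from 5.27 to 7.72 in CON, with a median of 7.26, and from 6.00 to 7.60 in NOCON, with a median of 7.02. The lowest array was CON 7, followed by NOCON 1, and the groups overlapped. ENG, a co-receptor for BMP and TGF-beta ligands, ranged from 7.56 to 9.68 in CON and from 8.64 to 9.62 in NOCON, with medians of 9.47 and 9.26. Without CON 7 the lowest ENG value in CON was 9.29, so that 1 heifer sat apart from 7 similar ones. The second probe set of ENG, dimmer by mean (8.42 against 9.25), followed the first over the 16 arrays (r = 0.99).

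PECAM1 ranged from 4.88 to 7.56 in CON and from 6.15 to 7.85 in NOCON, with nearly equal medians of 7.42 and 7.41. PLVAP, the diaphragm protein of fenestrated capillaries, ranged from 5.13 to 6.98 in CON and from 6.32 to 7.14 in NOCON. EMCN, a sialomucin of capillaries and veins, ranged from 6.56 to 7.90 in CON and from 6.92 to 7.71 in NOCON. In all 3 genes the lowest array was CON 7. VWF, the clotting glycoprotein that endothelium stores, had medians of 6.48 in CON and 6.44 in NOCON. The medians of ESAM, a junction adhesion molecule, were 6.26 and 6.31, those of CLDN5, the tight junction claudin of endothelium, 5.87 and 6.05, and those of ROBO4, a receptor that stabilises vessels, 5.77 and 5.64. CLEC14A, a C-type lectin of endothelium, had medians of 5.56 in CON and 5.63 in NOCON.

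Among the transcription factors of endothelial identity, the ETS factors FLI1 and ERG varied widely over heifers and the SOX factors did not. FLI1 ranged from 5.66 to 7.30 in CON and from 5.83 to 7.47 in NOCON. ERG ranged from 4.83 to 6.47 in CON and from 5.53 to 6.33 in NOCON. SOX18 kept within 5.20 to 5.62 in CON and 5.30 to 5.57 in NOCON, and SOX17, a factor of arterial endothelium, within 3.74 to 4.15 and 3.89 to 4.13. The SD over 16 arrays was 0.57 for FLI1 and 0.38 for ERG against 0.11 for each of the SOX factors. SOX17 also lay below the median gene.

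Of the VEGF ligands, VEGFA, the main growth factor for vessels, was read well above the median gene, with medians of 7.88 in CON and 8.20 in NOCON. Its lowest values were 5.46 in CON, on CON 7, and 7.11 in NOCON, on NOCON 1. VEGFB, which binds FLT1, ranged from 5.57 to 5.85 in CON and from 5.63 to 6.11 in NOCON. VEGFC, a ligand of the lymphatic receptor FLT4, had medians of 4.26 and 4.19, and PGF, placental growth factor, medians of 3.90 and 4.03, both below the median gene.

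KDR and NRP1 had the largest SDs of the 41 genes. KDR, the main signalling receptor for VEGFA, ranged from 6.20 to 9.06 in CON and from 6.81 to 9.03 in NOCON, with medians of 8.46 and 8.58. NRP1, a co-receptor, ranged from 5.89 to 8.22 in CON and from 6.21 to 8.57 in NOCON. FLT1, which binds VEGFA tightly and limits its action, ranged from 5.41 to 7.21 in CON and from 5.30 to 7.17 in NOCON. In these 3 receptors the 5 low-correlation arrays made up the lower end, with KDR between 8.23 and 9.06, NRP1 between 7.70 and 8.57 and FLT1 between 6.35 and 7.21 on the other 11. NRP2, the co-receptor shared with lymphatic vessels, had a median of 5.04 in both groups. FLT4 went the other way, at 5.26 on CON 7 and between 3.98 and 4.27 on the other 15 arrays.

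In the angiopoietin system, ANGPT2, the ligand that destabilises vessels so that they can sprout or regress, had the largest SD over the 11 arrays (0.59). It ranged from 4.71 to 6.08 in CON and from 4.68 to 6.86 in NOCON, highest on NOCON 3. TEK, the receptor, ranged from 4.32 to 6.35 in CON and from 4.09 to 5.86 in NOCON. ANGPT1, the stabilising ligand, ranged from 3.65 to 4.80 in CON and from 3.54 to 4.04 in NOCON, and TIE1, the co-receptor of TEK, from 4.39 to 4.90 and from 4.38 to 4.69. ANGPT1 was highest on CON 7, at 4.80, and stayed between 3.54 and 3.79 on the 11 arrays.

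Of the vasoactive genes, S1PR1, the sphingosine 1-phosphate receptor that seals junctions, ranged from 6.27 to 8.36 in CON and from 6.98 to 8.17 in NOCON. The endothelin receptors had medians of 5.58 in CON and 5.36 in NOCON for EDNRA, the form of vascular muscle, and 5.80 and 5.82 for EDNRB, the form of endothelium. EDN1, the vasoconstrictor peptide itself, had medians of 3.95 and 3.81, and NOS3, the endothelial nitric oxide synthase, 4.39 and 4.42. APLNR, the apelin receptor, had medians of 5.03 and 5.10, and its ligand APLN of 3.40 and 3.44.

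The 3 lymphatic markers lay above the median gene by mean and the 3 activation markers below it. PROX1, the master regulator of lymphatic identity, ranged from 4.43 to 6.06 in CON and from 4.84 to 5.89 in NOCON. PDPN, a mucin of lymphatic endothelium that myoepithelial cells and fibroblasts can also express, ranged from 5.89 to 6.77 and from 5.78 to 6.39. LYVE1, the hyaluronan receptor of lymphatic capillaries, which some macrophages share, ranged from 4.18 to 4.83 in CON and from 4.42 to 5.18 in NOCON. The leukocyte adhesion molecules of inflamed endothelium, SELP, SELE and VCAM1, had medians of 4.08, 3.67 and 3.45 in CON and of 4.01, 3.65 and 3.52 in NOCON. In each of these genes the groups overlapped.

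**Figure D1:**
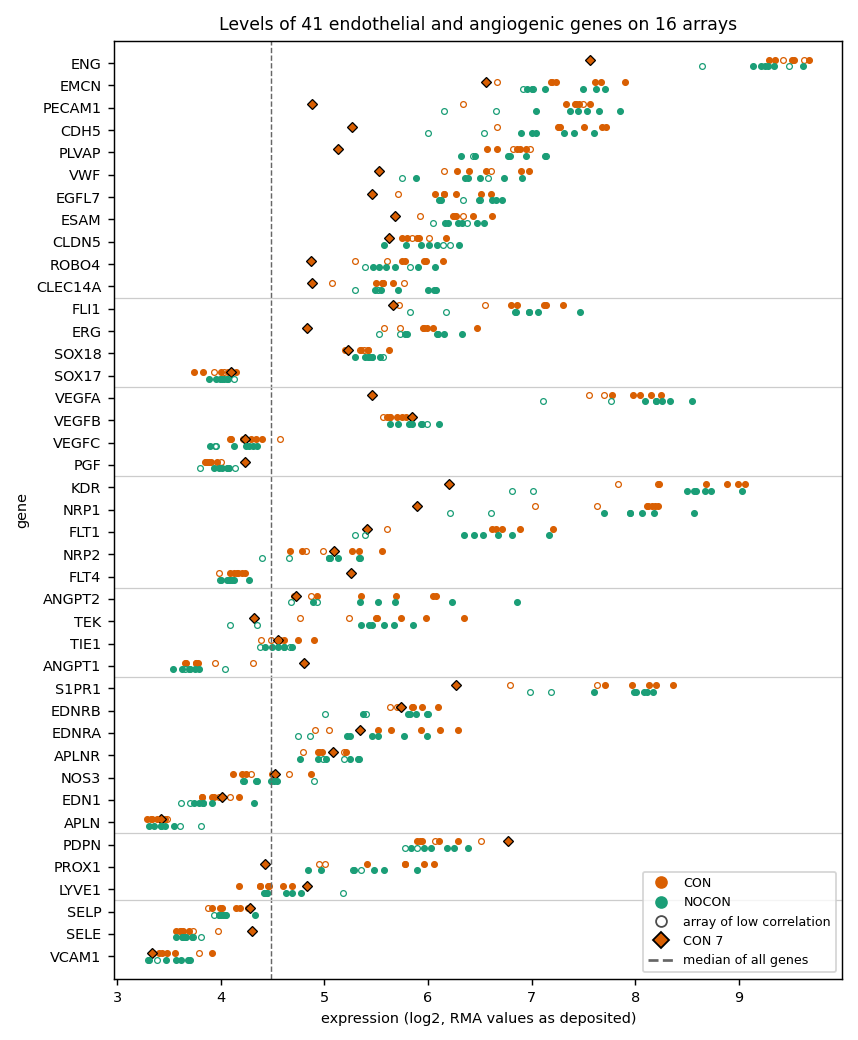
Log2 expression of the 41 genes by role, 1 point per heifer, with CON above and NOCON below on each line. Open circles are the low-correlation arrays other than CON 7, the diamond is CON 7 and the dashed line is the median gene of the array (4.48). CON 7 lies far to the left for ENG, PECAM1, CDH5, PLVAP, VEGFA and S1PR1 and to the right for FLT4, ANGPT1 and SELE.

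The vessel genes differed more between heifers than most genes did. Their median SD was 0.317 over the 16 arrays against 0.205 for all genes, and 0.201 against 0.122 over the 11 arrays. Of the 41 genes, 29 exceeded the median SD of all genes and 12 were among the 10% of genes with the largest SD. In level, 30 of the 41 lay above the median gene, and SDs were not compared at equal level. The largest SDs were those of KDR (0.86), NRP1 (0.79), PECAM1 (0.76), VEGFA (0.72) and FLT1 (0.67). On the 11 arrays these fell to 0.25, 0.22, 0.20, 0.20 and 0.27.

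CON 7 held many of the extremes. It was the lowest array for 17 of the 41 genes and the highest for 5 (FLT4, ANGPT1, PGF, PDPN and SELE), while over all genes it was the lowest for 25.4% and the highest for 31.8%. The difference between bright and dim genes was general: of genes with a mean level of 5 or more, 57.8% were lowest on CON 7, beside 17 of 28 vessel genes, and of genes under 5, 47.4% were highest on CON 7, beside 4 of 13 vessel genes.

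High values of vessel genes gathered on a few other arrays. CON 5 was the highest of 16 for 10 vessel genes (CDH5, VWF, KDR, FLT1, TEK, TIE1, ESAM, EDNRA, NRP2 and S1PR1), against 4.7% of all genes. NOCON 3 was the highest for 8 (PECAM1, FLI1, CLEC14A, EDN1, ANGPT2, VEGFA, NRP1 and SELP), against 8.8%, and CON 4 for 6, among them ENG, ROBO4 and ERG, against 3.2%. Among the 11 arrays, NOCON 7 was the lowest for 12 vessel genes and NOCON 6 for 11, against 7.0% and 10.1% of all genes. These counts describe the arrays and were not tested, since genes of a list are not replicates.

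**Figure D2:**
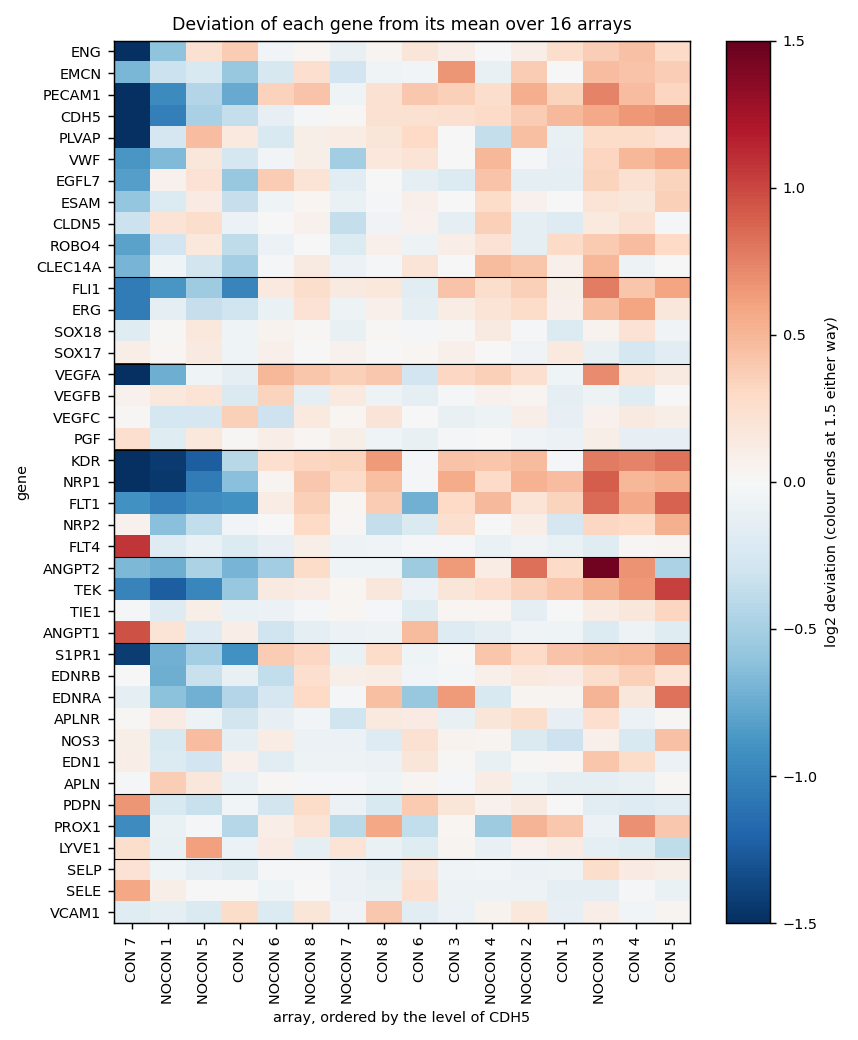
Deviation of each of the 41 genes from its own mean over 16 arrays, in log2 units (red above, blue below, colour ending at 1.5), with arrays in order of CDH5. CON 7, NOCON 1 and CON 2 are blue for most junction genes, NOCON 5 for VEGF receptor and ETS factor genes but for 4 of 11 junction genes, and NOCON 3, CON 4 and CON 5 at the right are red.

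Whether the vessel genes rose and fell together from heifer to heifer was read through their correlation with CDH5, which stands for vessel content. Over 16 arrays, 21 of the other 40 genes were positively correlated with CDH5 at an adjusted p under 0.05, and 2, ANGPT1 and SELE, negatively (permutation test with 100000 resamples, two-sided, Benjamini-Hochberg over 18443 genes). That is 52.5% of the vessel genes with a positive call against 24.7% of all genes, and 5.0% with a negative call against 29.2%. Without CON 7, 17 of 40 (42.5%) were positive against 15.2% of all genes, and 1, APLN, negative against 9.95%.

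Without all 5 low-correlation arrays no gene of the array passed, so that the called share was 0 for vessel genes and for all genes, with a lowest adjusted p of 0.127 in the permutation test. At an unadjusted p under 0.05 over these 11 arrays, 13 of the 40 vessel genes (32.5%) were positive against 6.43% of all genes. They were ESAM, ROBO4, ENG, VWF, ERG, FLI1, FLT1, NRP1, TEK, TIE1, EDN1, EDNRB and S1PR1. SOX17 and PGF were negative (5.0% against 6.37%).

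The median r with CDH5 followed the same course. For the 10 other defining markers of vascular endothelium it was 0.79 over 16 arrays, 0.69 without CON 7 and 0.60 over the 11 arrays, and 10 of the 10 had a positive r in the last. For the 40 vessel genes it was 0.55, 0.54 and 0.40, and for all genes -0.15, -0.08 and -0.01. Bright genes as a whole moved with CDH5 over the 16 arrays. From the dimmest to the brightest genes (means under 4, 4 to 5, 5 to 6, 6 to 8, and 8 or more), the median r of all genes was -0.61, -0.32, 0.47, 0.72 and 0.60. That of the 7, 6, 13, 12 and 2 vessel genes of these ranges was -0.48, -0.01, 0.61, 0.81 and 0.89. Over the 11 arrays the medians of all genes were -0.11, -0.05, 0.19, 0.16 and -0.07, and those of the vessel genes -0.37, 0.23, 0.40, 0.60 and 0.72. The 7 vessel genes with means under 4 thus had a negative median in both sets of arrays. How far the low-correlation arrays bear on the values over 16 arrays was not tested beyond this.

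TEK followed CDH5 most closely once the low-correlation arrays were left out. Its r was 0.90 over 16 arrays (Spearman's rho 0.96; permutation adjusted p = 0.000781 for r and 0.00355 for rho), 0.93 without the 2 arrays farthest from the median of CDH5 (CON 7 and NOCON 1) and 0.89 over the 11 arrays (rho 0.96; permutation p = 9e-05 for r and 8e-05 for rho), or 0.97 without NOCON 6 and CON 5, the farthest of the 11. Heifers with high CDH5, such as CON 5 and CON 4, also had high TEK. ENG gave 0.85 over 16 arrays (rho 0.61; permutation adjusted p = 0.00389 for r and 0.0645 for rho) and 0.89 over 11 (rho 0.86; permutation p = 0.00026 and 0.00098), or 0.90 without NOCON 6 and CON 5. The value over 16 arrays rested on CON 7 and NOCON 1, since without them r was 0.29. CON 2, CON 6 and NOCON 5 kept ENG near the level of the 11 arrays.

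The highest r over 16 arrays belonged to NRP1 and PECAM1, at 0.94 each, and to KDR, at 0.93 (permutation adjusted p = 0.000781 each, from the smallest p the test can give, 1e-05). Their Spearman's rho was 0.87, 0.70 and 0.84, with permutation adjusted p of 0.00355, 0.0279 and 0.00578. Without the 2 farthest arrays r was 0.84, 0.76 and 0.80. Over the 11 arrays r was 0.69 for NRP1, 0.44 for PECAM1 and 0.56 for KDR, with permutation p of 0.0132, 0.177 and 0.0764. PECAM1 had the lowest r of these 3 genes over the 11 arrays, but the order was not stable. Without NOCON 6 and CON 5, r was 0.62 for PECAM1, 0.59 for NRP1 and 0.36 for KDR. Platelets and leukocytes also carry PECAM1, and their part in its r was not tested.

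At the other end stood SELE, with r = -0.78 over 16 arrays (rho -0.68), ANGPT1, with -0.69 (rho -0.29), and FLT4, with -0.60 (rho 0.19). The permutation adjusted p was 0.0127, 0.027 and 0.0931 for r and 0.0336, 0.41 and 0.603 for rho. These 3 genes were highest on CON 7. Without the 2 farthest arrays their r was -0.32, -0.02 and 0.33, and over the 11 arrays -0.37, 0.29 and 0.04. The negative value of FLT4 rested on CON 7, since r was 0.49 without that array alone. That of ANGPT1 was -0.27 without CON 7 alone, and so rested on CON 7 and NOCON 1 together. SELE stayed negative, also without CON 7 alone (-0.46) and within the NOCON group (-0.92, exact permutation p = 0.00186). It is a dim gene, with a mean of 3.72, and spanned only 3.57 to 3.81 in NOCON. Its highest NOCON values were those of the low-correlation arrays NOCON 1 (3.81) and NOCON 5 (3.73), where CDH5 was lowest in that group. Over the 11 arrays the permutation p of its r was 0.266.

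VEGFA changed sign between the sets of arrays. Over 16 arrays its r with CDH5 was 0.83 (permutation adjusted p = 0.00596), but rho was 0.36 (permutation adjusted p = 0.303), and without CON 7 r was 0.58. Over the 11 arrays r was -0.37 (permutation p = 0.264) and rho -0.58 (permutation p = 0.0656), with r = -0.16 once NOCON 6 and CON 5 were left out and -0.09 once the group means were removed. The 4 heifers of those 11 with the highest CDH5, CON 5, CON 4, NOCON 3 and CON 1, had VEGFA at 7.98, 8.05, 8.55 and 7.78, so that NOCON 3 was high for both genes and the CON heifers were not. NOCON 6, lowest of the 11 for CDH5, had VEGFA at 8.34. PGF (r = -0.69 over 11 arrays) and VEGFB (-0.55) were negative as well, whereas VEGFC had 0.35.

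**Figure D3:**
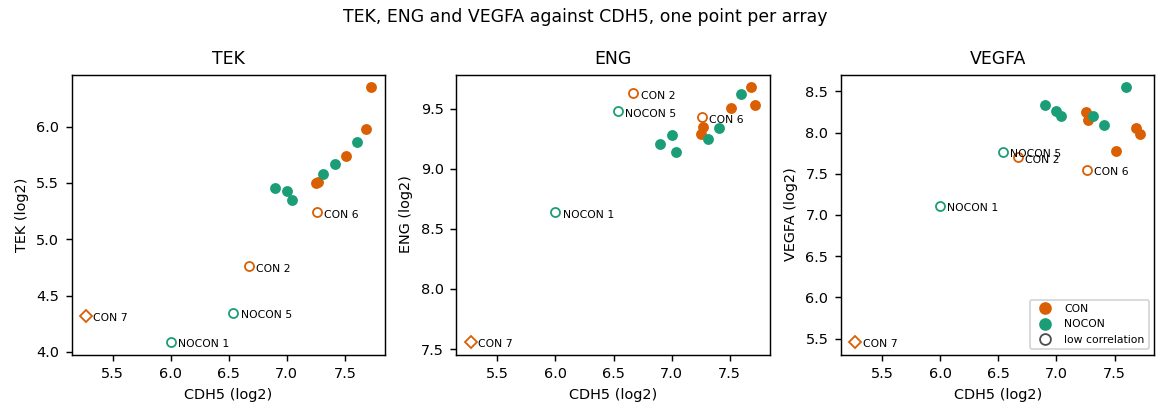
TEK, ENG and VEGFA against CDH5 (log2, 1 point per heifer; open symbols are the low-correlation arrays, with CON 7 as a diamond). Among the 11 filled points TEK and ENG rise with CDH5 (r = 0.89 each) and VEGFA does not (r = -0.37). CON 7 lies at the lower left for VEGFA, whose r over 16 arrays, 0.83, is 0.58 without CON 7 and 0.24 without CON 7 and NOCON 1.

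By role, the VEGF receptors and co-receptors kept a median r with CDH5 of 0.80 over 16 arrays, 0.84 without CON 7 and 0.56 over 11. Over the 11 it was positive in 5 of 5 genes, but only 0.04 for FLT4, which had -0.60 over 16 arrays. The junction and surface genes gave 0.79, 0.67 and 0.51, and the angiopoietin and Tie genes 0.52, 0.59 and 0.53. The vasoactive genes gave 0.30, 0.59 and 0.47. The VEGF ligands gave -0.08, 0.10 and -0.46, with 1 of 4 positive over the 11 arrays. The lymphatic genes, at -0.34, 0.23 and -0.20, and the activation markers, at 0.02, 0.21 and 0.06, showed no common direction. The difference between the VEGF receptors and their ligands was not tested.

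Ligands and their own receptors were also set side by side in 9 pairs. VEGFA and KDR had r = 0.85 over 16 arrays, 0.79 without CON 7 and 0.34 over 11. VEGFA and FLT1 had 0.67, 0.77 and 0.08. On the 11 arrays both pairs turned negative (-0.79 and -0.66) once CON 1 and NOCON 3 were left out. Those are the 2 of the 11 arrays farthest from the median of VEGFA. Over the 11, rho was -0.07 for each pair. PGF and FLT1 had -0.25, -0.05 and -0.37, and VEGFC and FLT4 0.09, 0.22 and 0.47. ANGPT2 and TEK had 0.60, 0.55 and 0.07, and ANGPT1 and TEK -0.55, -0.40 and 0.01. EDN1 and EDNRB kept the same value, 0.59, over 16 and over 11 arrays, and APLN and APLNR had 0.18 and -0.02. EDN1 and EDNRA had 0.31, 0.33 and 0.29. After adjustment over the 9 pairs, the permutation test of r called 5 pairs over 16 arrays and 0 over the 11. The 5 were VEGFA with KDR and with FLT1, both angiopoietins with TEK, and EDN1 with EDNRB. By rho, ANGPT1 with TEK and EDN1 with EDNRB did not pass over 16 arrays (permutation adjusted p = 0.179 and 0.121). Calls were common over those arrays, where 24.7% of all genes were called positive with CDH5 and 29.2% negative. The pairs were chosen with earlier results of these data known, so the calls of pairs are no independent evidence.

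**Figure D4:**
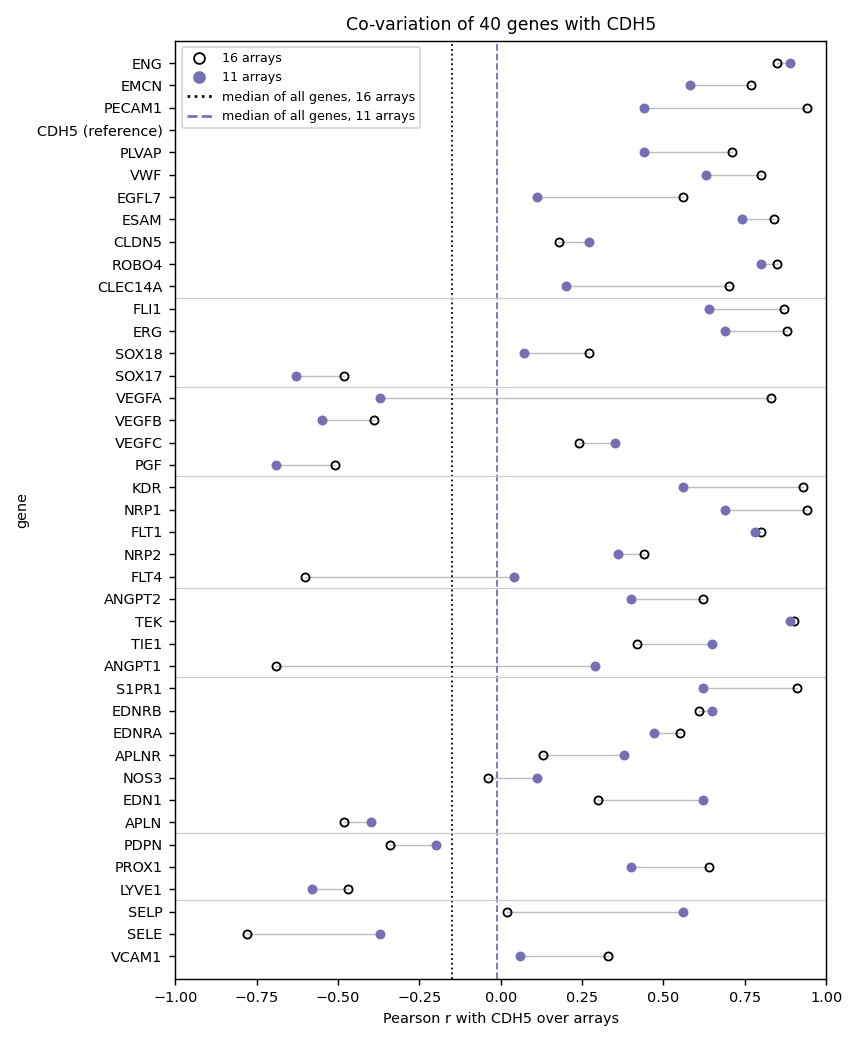
Pearson's r of each of the 40 other genes with CDH5, over 16 arrays (open) and over the 11 arrays without those of low correlation (filled), by role. Dotted and dashed lines are the medians of all genes (-0.15 and -0.01). ENG, TEK, FLT1 and ROBO4 keep their place, and VEGFA and PECAM1 move far to the left.

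Markers of cells around the vessels were read in the same way. Pericyte markers had a median r with CDH5 of 0.63 over 16 arrays, 0.64 without CON 7 and 0.55 over 11, led by RGS5, a G protein regulator of pericytes, at 0.88, 0.85 and 0.80 (permutation p = 0.00201 over 11), and over 16 arrays next by PDGFRB, their receptor for platelet-derived growth factor, at 0.85, 0.75 and 0.60. ABCC9, a potassium channel subunit of pericytes, had 0.68, 0.81 and 0.76. CSPG4, another pericyte marker, was negative, at -0.84, -0.68 and -0.39. Luminal epithelial markers had a median of 0.29, -0.02 and 0.00, although CDH1, the epithelial cadherin, had 0.95, 0.89 and 0.52 and ELF5 0.82, 0.58 and -0.55. For smooth muscle and myoepithelium the medians were 0.55, 0.37 and 0.29, with MYH11 at 0.90 and 0.45 and MYLK at 0.86 and 0.24 over 16 and 11 arrays. For fibroblasts they were 0.43, 0.36 and 0.33, with PDGFRA at 0.77 and 0.53 and DPT at 0.65 and 0.23.

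Markers of adipocytes, macrophages, lymphocytes, platelets and erythrocytes had negative medians over 16 arrays and medians between -0.36 and 0.26 over 11. The median r of adipocyte markers went from -0.53 to 0.01, with PCK1 at -0.81 and -0.35 and PLIN1 at -0.62 and 0.01. That of macrophage markers went from -0.33 to 0.10, with MSR1 at 0.70 and 0.74 and C1QB at -0.63 and 0.13. That of lymphocyte markers went from -0.33 to 0.26, with MS4A1 at -0.83 and -0.32 and CD79B at -0.80 and -0.59. For platelets it went from -0.70 to -0.07, with GP1BA at -0.84 and -0.18 and GP9 at -0.82 and -0.14. For erythrocytes it went from -0.59 to -0.36, with SLC4A1 at -0.88 and -0.75 and ALAS2 at -0.81 and -0.33. In the list of lymphatic endothelium, CCL21 had -0.75 and -0.08, beside PROX1 at 0.64 and 0.40.

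The genes most like CDH5 in the whole array, after removal of group means over 16 arrays, were SERINC3, PTPRM, JAM2, QKI, NSD3, FABP5, CCDC82, PDLIM5, CNOT6L and AKAP13, with r of 0.97 to 0.98 (permutation adjusted p = 0.000373 each). JAM2, a junctional adhesion molecule, and PTPRM, a receptor phosphatase, are known from endothelial contacts. On the 11 arrays their r was 0.77 and 0.86, that of SERINC3 0.91, and that of NSD3 0.45. None of the 10 belongs to the 41 genes.

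Further vascular genes went both ways. Over 16 arrays and over 11, EPAS1, the hypoxia-inducible factor rich in endothelium, had r of 0.94 and 0.66 with CDH5, and BMPR2, a BMP receptor of vessels, 0.94 and 0.81. The orphan receptor ADGRF5 had 0.89 and 0.83, the transcription factors ETS1 and MEF2C 0.88 and 0.76 and 0.85 and 0.80, and the basement membrane protein NID1 0.92 and 0.72. Negative in both sets were STAB1 and STAB2, scavenger receptors of endothelium and macrophages (-0.57 and -0.71, -0.82 and -0.51), KLF2 (-0.36 and -0.56), the hypoxia marker CA9 (-0.52 and -0.56) and VASH2 (-0.80 and -0.61). The lists they belong to had medians over 11 arrays of 0.09 (hypoxia response), 0.56 (BMP and TGF-beta), 0.42 (further endothelial surface genes), -0.07 (further transcription factors) and 0.34 (basement membrane and inhibitors). The Notch list had 0.43 and the list of growth factors 0.36. The genes named here were picked for their high or low r and are a description.

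Setting CON against NOCON asks whether the feed of the first 6 months went with a difference in the vessel genes at the end of the first lactation. None of the 41 genes was called by limma, with p adjusted by Benjamini-Hochberg over 26773 probe sets, where 16 probe sets, 0.0598%, passed an adjusted p of 0.05 (0.0374% higher in CON and 0.0224% lower). The lowest adjusted p among them in limma was 0.518. At an unadjusted p under 0.05, limma gave 2 of 41 genes (4.88%), VEGFB and EGFL7, both lower in CON, against 2320 probe sets in all (8.67%, of which 3.57% higher in CON and 5.1% lower). By the exact permutation test with adjustment, 0 probe sets passed. All 41 genes overlapped between the groups, where 0.176% of probe sets did not.

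Of the 41 genes, 21 were lower and 20 higher in CON, with a median difference of -0.01 on the log2 scale (all genes -0.004). The median size of a difference, without its sign, was 0.103 for the vessel genes and 0.085 for all genes. Without the 5 low-correlation arrays 22 were higher and 19 lower (median 0.029), and without CON 7 alone 27 were higher and 14 lower (median 0.056). Limma called 0 of the 41 in either case, against 0.0859% and 0.0747% of all probe sets, with lowest adjusted p of 0.401 and 0.385.

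VEGFB had the smallest p of the vessel genes. It averaged 5.69 in CON and 5.87 in NOCON, a log2 difference of -0.18 (SE 0.07, 95% interval -0.32 to -0.04, limma adjusted p = 0.518; exact permutation p = 0.0160). The difference was -0.15 over the 11 arrays. EGFL7, a matrix protein that endothelium secretes, ranged from 5.46 to 6.61 in CON (median 6.15) and from 6.11 to 6.71 in NOCON (median 6.50), lowest on CON 7. It averaged 6.12 and 6.45, a difference of -0.33 (SE 0.15, limma adjusted p = 0.570; exact permutation p = 0.0524), which came to -0.13 over the 11 arrays. CLEC14A followed with -0.27 (SE 0.14, limma adjusted p = 0.595), at 5.45 against 5.71, and kept -0.24 over the 11 arrays.

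VEGFA averaged 7.62 in CON and 8.07 in NOCON, the largest difference of the 41 genes by size, -0.45 or 1.37-fold lower. Its 95% interval ran from -1.15 to 0.25 (SE 0.33, limma adjusted p = 0.663), and CON 7 carried much of it, since the difference was -0.14 without that array. Among the 11 arrays it was -0.23 (limma adjusted p = 0.526). VEGFA, PGF and PROX1 were the 3 genes with an unadjusted limma p under 0.05 over those 11 arrays, where 2309 of 26773 probe sets (8.62%) had one, and none passed after adjustment. PGF differed there by -0.13 (limma adjusted p = 0.401) and PROX1 by 0.46 (limma adjusted p = 0.513).

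The remaining named genes differed by less than their spread between heifers. Higher in CON by mean were VEGFC (0.14, SE 0.09), ANGPT1 (0.23, SE 0.14), EDN1 (0.12, SE 0.09) and FLT4 (0.19, SE 0.14), and lower were APLN (-0.10, SE 0.07), CLDN5 (-0.13, SE 0.10) and LYVE1 (-0.13, SE 0.11), with limma adjusted p of 0.618 to 0.703. On the 11 arrays ANGPT1 came to 0.04, FLT4 to 0.05 and EDN1 to 0.03. CDH5 differed by 0.10 (SE 0.31, 95% interval -0.56 to 0.77), PECAM1 by -0.22 (SE 0.36, -0.99 to 0.54) and KDR by 0.02 (SE 0.42, -0.86 to 0.90). Without CON 7 these were 0.36, 0.08 and 0.32, so that PECAM1 changed sign. The intervals are wide, up to 0.88 either way for KDR, and differences of any size within them remain compatible with the values of 8 heifers per group.

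**Figure D5:**
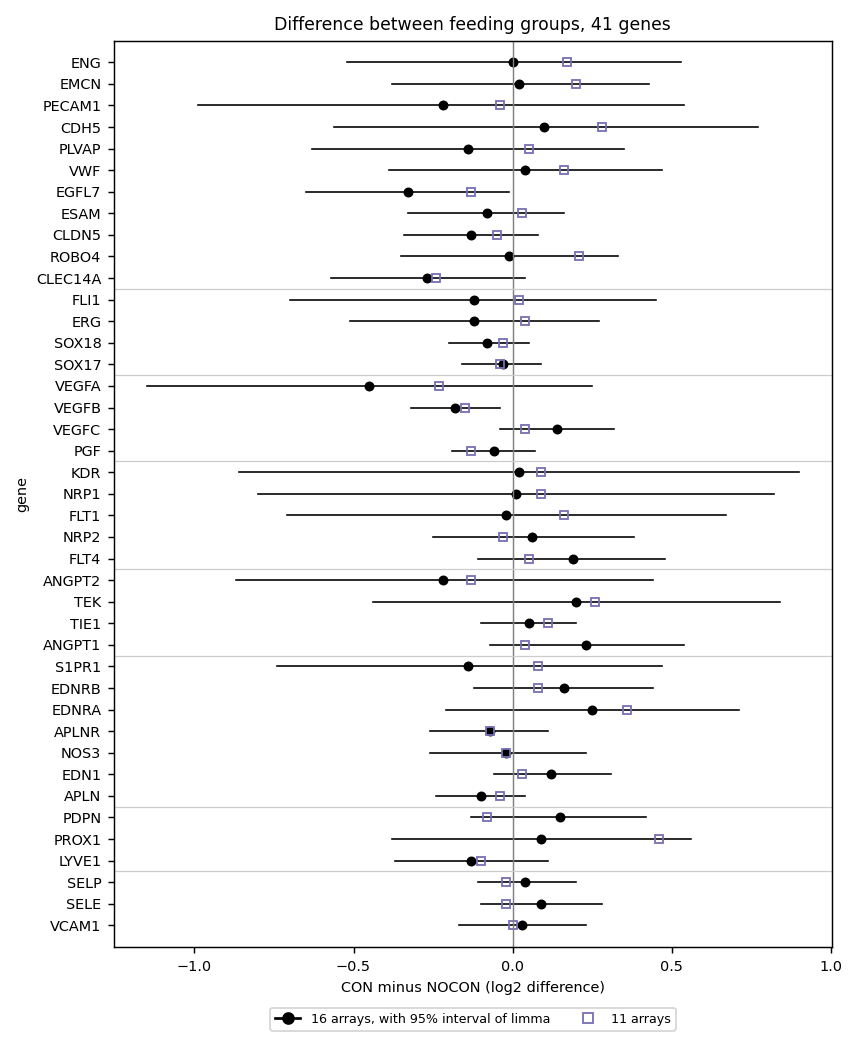
Difference of CON minus NOCON in log2 units for the 41 genes by role, with the 95% interval of limma over 16 arrays (filled points with lines) and the value over the 11 arrays (open squares). The intervals of VEGFB and EGFL7 leave out 0, unlike the other 39, and those of KDR, NRP1, PECAM1 and VEGFA are the widest.

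By role, the 4 transcription factors and 7 of 11 junction and surface genes were lower in CON, with medians of -0.099 and -0.082. On the 11 arrays those medians were -0.005 and 0.051, and 2 of 4 and 4 of 11 were lower. The VEGF ligands had -0.12 and -0.137, with 3 of 4 lower in both. The VEGF receptors had 0.023 and 0.087, with 1 of 5 lower in both. Markers of luminal epithelium were lower in CON in 12 of 12 genes over 16 arrays (median -0.197) and in 9 of 12 over the 11 (median -0.057), and their mean level on CON 7 was 6.10 against at least 6.61 on every other CON array. The part of the epithelial share in the vessel values was not tested.

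The other genes of the vascular pathways were read from lists of 101 genes on the array (Notch and arteriovenous identity, hypoxia response, further endothelial surface genes and transcription factors, BMP and TGF-beta, basement membrane and inhibitors, growth factors). Limma called 0 of them, 57 were lower and 44 higher in CON, and 7 (6.93%) had an unadjusted p under 0.05, 6 lower and 1 higher, which is not above the 8.67% of all probe sets (5.1% lower and 3.57% higher). JAG2, a Notch ligand, differed by -0.28 (SE 0.09, limma adjusted p = 0.431; exact permutation p = 0.00777) and came to -0.10 over the 11 arrays, and DLL4, the Notch ligand of sprouting tip cells, by -0.17. GPIHBP1, which holds lipoprotein lipase on the capillary wall and so serves the uptake of fat for milk, averaged 6.97 in CON and 7.38 in NOCON (-0.41, SE 0.15, limma adjusted p = 0.513; -0.28 over the 11 arrays). CALCRL, the receptor for adrenomedullin, was the 1 gene higher in CON at that level (0.30), and ADM itself differed by 0.16.

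LMO2, a cofactor of endothelial and blood transcription, differed by -0.24, KLF2, the factor induced by flow, by -0.20, SMAD7, an inhibitor of TGF-beta signalling, by -0.15, and BMP6 by 0.11. COL18A1, the source of endostatin, differed by -0.10 and VASH1, an inhibitor that endothelium makes, by -0.14. Of the growth factors, ANGPTL2 differed by -0.17 and HGF by 0.07. EGLN1, an oxygen sensor of the hypoxia response, differed by -0.34 over 16 arrays and by 0.03 over the 11. None of these passed after adjustment in limma (adjusted p of 0.526 to 0.757).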

How the data were processed

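Biopsy RNA of 16 heifers was hybridised to Affymetrix arrays as biotin-labelled cRNA, per the labels. The authors deposited expression values for 26773 probe sets. Per the submitters' processing notes, GCOS and RMA (background correction, normalization between arrays and summary of probes) made them. No source states the log base, and the deposited values, 2.73 to 12.66, were read as log2. No source gives the genome build, and scanner files were not used here.

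The annotation gave 1 symbol to 18790 probe sets, several to 385 and none to 7598. For 38 of the 41 genes the gene ID matched the same symbol in RefSeq (ARS-UCD2.0); the IDs of ENG, FLT4 and VEGFA were not matched, and their symbols are those of the annotation.

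CON minus NOCON was tested with limma 3.58.1 in R 4.3.3 (lmFit and eBayes, no covariates; adjusted p under 0.05 by Benjamini-Hochberg), and with exact two-sided permutation over 12870 regroupings. Correlations were tested by permutation with 100000 resamples, or exact enumeration for 8 or 9 arrays, in Python 3.11.15 with numpy 2.4.6. With 1 array per heifer, p-values measure the spread of heifer, biopsy and array together. Both tests were tried on simulated data.

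The members, lists and tests were chosen with earlier results of these data known. Named in the comparison were the 10 members with the smallest limma p, CDH5, PECAM1, KDR, VEGFA and LYVE1, and the 2 genes with the smallest p of each pathway list. For the correlation they were the 10 genes of the array most like CDH5, the 3 members with the highest and the 3 with the lowest r, and the 2 genes with the highest absolute r of each cell list. For spread they were the 5 members with the largest SD. TEK, ENG, the other genes named for their r, and PGF and PROX1 were chosen after their values were seen.

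Low-correlation arrays lie over 5 scaled median absolute deviations under the median array in their median correlation, a set left out as an alternative added after seeing the data, as was CON 7 alone for the correlation. Replicate numbers were not taken as pairs of heifers in the main test.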

Additional observations from a re-analysis of the deposited data

Results flagged for a closer look

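Dixon's test, whose critical value is 0.526 for 8 arrays, was applied to each of the 2 groups of the 41 genes and of the named pathway genes, 110 groups in all, and marked a single array in 16 of them. Chance marks about 1 in 20 groups. CON 7 was the array in 10 of the 16. It was low for ENG (gap 0.816 of the range), PLVAP (0.778), VEGFA (0.749), EGLN1 (0.705), CDH5 (0.571), KDR (0.570), PECAM1 (0.545) and LMO2 (0.529), and high for FLT4 (0.805) and PGF (0.605). FLT4 was at 5.26 on CON 7, above every other array.

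NOCON 3 was high for SELP (0.700), BMP6 (0.614) and EDN1 (0.571), at 4.33, 5.16 and 4.32. NOCON 5 was high for LYVE1 (0.539), at 5.18. CON 4 was low for COL18A1 (0.647), at 4.47, and NOCON 1 for ANGPTL2 (0.644), at 6.03.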

How the results depend on the processing

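No alternative called any of the 41 vessel genes between CON and NOCON, and the lowest adjusted p was 0.16 (CDH5, limma with the first principal component as a covariate). The 16 probe sets called in all became 67 with array weights, 44 with the first principal component as a covariate, 35 at an adjusted p of 0.10, 4 with the replicate block and 0 with the adjusted exact test (2794 at an unadjusted p under 0.05, lowest adjusted p 0.0885), and 16 to 20 with each array left out. No pairing of heifers by replicate number was seen: same-numbered arrays had correlations of -0.49 to 0.38, over 0.1 in 2 of 8 pairs, and 1 CON array correlated best with its own number. The low-correlation arrays enter these values, so a pairing could be missed. The difference of PECAM1 turned to 0.054 with array weights and 0.143 with the principal component, and that of KDR to -0.002 with median centring. With each array left out, CDH5 ran from -0.036 to 0.361, PECAM1 from -0.375 to 0.077 and KDR from -0.181 to 0.318; the negative value of CDH5 came without NOCON 1 and the positive one of PECAM1 without CON 7. The median difference of the 41 genes ran from -0.057 to 0.056. The 23 of 40 genes correlated with CDH5 (9937 of all 18443 genes) became 18 with quantile normalization (5459) and 16 by Spearman's rho (3542). They became 4 in CON alone (204 of all genes), 13 in NOCON alone (3642), 7 without the 2 farthest arrays (439) and 0 on the 11 arrays (0). The median r of the defining markers, 0.79, became 0.65 with quantile normalization, 0.91 in CON alone, 0.66 in NOCON alone, 0.61 without the 2 farthest arrays, 0.60 without the 5, and 0.69 to 0.81 with each array left out. Fewer arrays enter the fits of 1 group and those without arrays; the cause of the other changes was not tested. Median centring moved the median r of all genes with CDH5 from -0.15 to 0.30.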

Other observations

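Over the 11 arrays the genes of the whole array most like CDH5 were AREL1 (r = 0.95), ZBTB26, PCM1, MAPK1IP1L (0.93 each), ZNF605, STK17B, TIMP4 (0.92 each), MYO1D, ABLIM1 and SERINC3 (0.91 each). ZBTB26 and ZNF605 had 0.48 and 0.57 over 16 arrays. TIMP4, an inhibitor of matrix metalloproteinases, kept 0.96 over 16 arrays.

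Among themselves, the 11 defining markers of vascular endothelium had a median pairwise r of 0.67 over 16 arrays (55 pairs), 0.59 without CON 7 and 0.46 over the 11 arrays, and the 41 vessel genes one of 0.20, 0.21 and 0.22 (820 pairs).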
